A study of Mus musculus with 6 samples.

Results

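The cells described here are T cells without a Cd8 transcript, found within single cell RNA-seq libraries of mouse spleen that are labelled as germinal center (GC) B-cells. They were chosen by measured transcripts. A barcode (the tag shared by the reads of 1 droplet) was taken when it held at least 300 detected genes and under 10% mitochondrial unique molecular identifiers (UMIs, the counted molecules). It further had to show at least 2 of the 5 T cell genes *Cd3d*, *Cd3e*, *Cd3g*, *Trac* and *Trbc2*, at most 1 UMI of *Cd79a*, no UMI of *Ms4a1*, at most 1 UMI of *Lyz2* and no UMI of *Cd8a* or *Cd8b1*. The rule found 417 Cd8-negative T cells among 21924 kept barcodes (1.90%), of 22939 barcodes in all. Cells that met the same rule but had at least 1 Cd8 UMI numbered 108, and are called Cd8-positive T cells here. Barcodes with at least 2 *Cd79a* UMIs and none of the 5 T cell genes, called B-lineage, numbered 19326.

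The study compared mice labelled Cgamma1-Cre WT Control (WT, 3 libraries) with mice labelled Cgamma1-Cre Smc3 +/- (HET, 3 libraries), so that every mouse carried the Cre allele. Cre is expressed from the Cgamma1 (*Ighg1*) locus, which is active in B-cells that enter the GC reaction, and *Smc3* encodes a subunit of cohesin, which shapes chromatin loops. The mice were immunized with sheep red blood cells, and sorted splenic cells were sequenced. The mice numbered 6 WT and 3 HET and the spleens were taken 8 days after immunization. The antibodies used for the sort, the age of the mice and how the mice fall into the 3 libraries of each genotype are not given in the sources used here, so the p-values measure only the spread between libraries, which may be technical.

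CD4 T cells recognize peptide on MHC class II and lack CD8. In the GC, follicular helper T (Tfh) cells stay near B-cells through the chemokine receptor CXCR5, carry PD-1 (*Pdcd1*) and ICOS, and give help through CD40 ligand, IL-21 and IL-4. Naive T cells instead recirculate with CCR7 and S1PR1, and regulatory T (Treg) cells are defined by the transcription factor FOXP3.

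Cd8-negative T cells were shallow relative to the B-cells around them. Their median was 1482 UMIs, against 1846 in Cd8-positive T cells and 5417 in B-lineage barcodes, and the median per library lay between 1178 and 1744.5. Summed over the cells of a library, 73883 to 325730 UMIs were available. HET replicate 2 stood apart. Immunoglobulin genes took 52.9% of the UMIs of all its kept barcodes, against 2.38% to 4.05% in the other 5 libraries. Within the Cd8-negative T cells immunoglobulin took 1.16% of UMIs in that library, 1.40% in HET replicate 1 and 0.0998% to 0.155% in the remaining 4. The hemoglobin transcript *Hbb-bs* was seen in 32.0% of the Cd8-negative T cells of HET replicate 2 and in 0% to 22.0% of those of the others. Y-linked transcripts were present in WT replicates 1 and 2 and HET replicate 2. No barcode was shared between the Cd8-negative T cells of different libraries, although 11 of them occurred in another library in some other class. Several results below are also given without HET replicate 2.

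Most of the cells lay well inside the rule. All 5 T cell genes were detected in 220 cells, 4 in 124, 3 in 51 and exactly 2 in 22, whereas 13 barcodes fell just outside with a single T cell gene. A single *Cd79a* UMI was present in 20 of the 417 cells, and 12 barcodes, 10 of them in HET replicate 2, were kept out by *Cd79a* alone. Another 15 were kept out by *Ms4a1* and 6 by *Lyz2*. Of the Cd8-positive T cells, 31 had exactly 1 Cd8 UMI and 77 had more, and a cell whose Cd8 transcripts were not captured cannot be told apart from a Cd8-negative cell. A cell of HET replicate 1 entered with 1 UMI each of *Trac* and *Trbc2* among 2876 UMIs, of which 55.8% were immunoglobulin. It was the only one of the 417 above 10%.

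The share of Cd8-negative T cells differed more between libraries of the same genotype than between genotypes. It was 5.18% (55 of 1061 barcodes) in WT replicate 1, 1.13% (59 of 5216) in WT replicate 2 and 0.801% (36 of 4493) in WT replicate 3. It was 2.96% (73 of 2470), 3.32% (128 of 3860) and 1.37% (66 of 4824) in HET replicates 1, 2 and 3. The library with the fewest kept barcodes, WT replicate 1, thus had the highest share, with an exact 95% binomial interval of 3.93% to 6.69% that covers counting error only. The means were 2.37% ± 2.44 (SD, n = 3) in WT and 2.55% ± 1.04 (SD, n = 3) in HET, a difference of 0.175 percentage points (exact two-sided permutation test over libraries, p = 0.9, with 0.1 the smallest p that 3 against 3 libraries allow). Without WT replicate 1 the difference was 1.58 percentage points, and without HET replicate 2 it was -0.210.

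**Figure D1:**
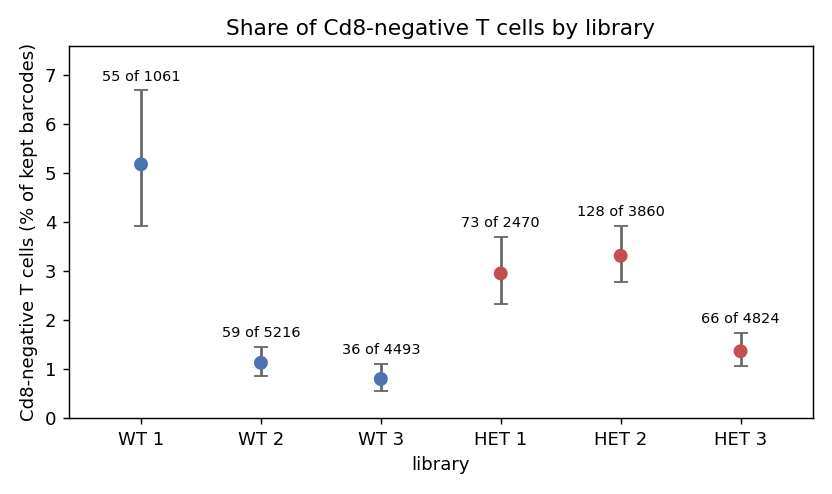
Cd8-negative T cells as a percentage of kept barcodes in each library (blue WT, red HET), with exact 95% binomial intervals that cover counting error only and the number of cells above each point. WT replicate 1 is highest at 5.18% and WT replicate 3 lowest at 0.801%, and the HET libraries lie between them.

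As a share of T cells, Cd8-negative cells were 76.4%, 75.6% and 73.5% in WT replicates 1, 2 and 3, and 79.3%, 86.5% and 76.7% in HET replicates 1, 2 and 3. Every HET library lay above every WT library, with means of 80.9% ± 5.04 against 75.2% ± 1.52 (SD, n = 3 each). The difference of 5.69 percentage points gave an exact permutation p of 0.1, the smallest possible in this design. HET replicate 2 was highest, and without it the difference was 2.88 percentage points (exact permutation p = 0.2). Cd8-positive T cells numbered only 13 to 20 per library.

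Genes of the T cell receptor complex were frequent in these cells, as the rule required. Of the 5 label markers, *Cd3d* and *Cd3e*, which encode chains of the CD3 signalling complex, were detected in 85.1% and 79.1% of cells, and *Trbc2*, a constant segment of the T cell receptor beta chain, in 94.2%. Other T cell genes, which the rule did not use, were detected as well. The receptor-proximal kinase *Lck* was detected in 77.5% of cells (31.4% of B-lineage barcodes), the adaptor *Lat* in 65.7% (2.85%), the transcription factor *Bcl11b* in 44.4% (1 barcode, of HET replicate 2) and *Thy1* in 46.0% (0.393%). Of the 2 beta constant segments, 194 cells showed *Trbc2* alone, 19 *Trbc1* alone, 199 both and 5 neither. The B-cell transcription factor *Pax5* was detected in 0.72% of cells and *Ebf1* in 1.20%, against 41.8% and 89.3% of B-lineage barcodes. *Cd74*, the invariant chain of MHC class II, was detected in 43.2% of Cd8-negative T cells, 42.6% of Cd8-positive T cells and nearly all (99.98%) B-lineage barcodes.

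The *Cd4* transcript was detected in a minority. At least 1 *Cd4* UMI was present in 16.4%, 25.4% and 38.9% of the cells of WT replicates 1, 2 and 3, and in 23.3%, 20.3% and 21.2% in HET replicates 1, 2 and 3. Over all libraries this was 22.8%, against 3.70% of Cd8-positive T cells and 0.54% of the deeper B-lineage barcodes. The Cd8-positive share was 2 of 95 cells without WT replicate 3, and the B-lineage share was 11 of 16662 barcodes (0.0660%) without HET replicate 2. After every cell was thinned to 1000 UMIs, the shares were 13.4%, 0% (0 of 97 cells, which allows up to 3.09%) and 0.0209%, the last from 4 barcodes that were all of HET replicate 2. *Cd40lg*, the gene of CD40 ligand, was detected in 71 of the 417 cells, and *Zbtb7b*, which encodes the CD4 lineage factor ThPOK, in 8.15%. At least 1 of these 3 genes was seen in 161 cells and none in the other 256. Transcripts tied to the CD4 lineage were seen in 161 of the 417. *Icos* was detected in 23.7% of cells (12.7% to 26.6% per library), in 13.0% of Cd8-positive T cells and in 0.02% of B-lineage barcodes.

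**Figure D2:**
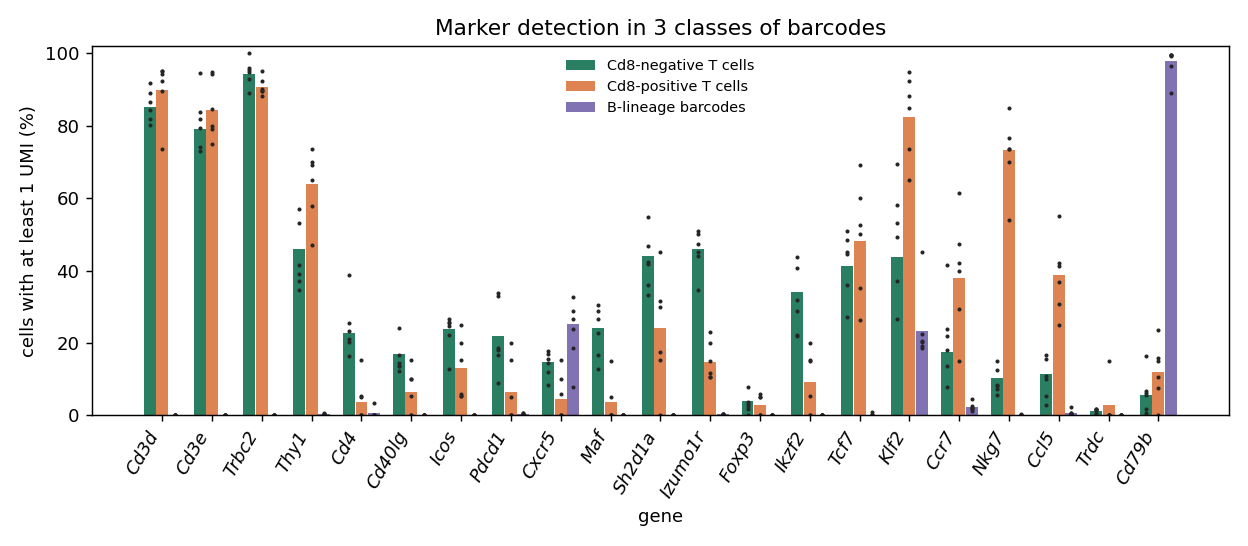
Percentage of cells with at least 1 UMI of each gene (bars, all libraries pooled without thinning; dots, single libraries) in Cd8-negative T cells, Cd8-positive T cells and B-lineage barcodes. *Cd3d*, *Cd3e* and *Trbc2* were used by the rule and are at 0 in B-lineage barcodes by construction, whereas *Cd4*, *Pdcd1*, *Maf* and *Izumo1r* are seen most in Cd8-negative T cells and *Nkg7* and *Ccl5* most in Cd8-positive T cells.

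Set beside Cd8-positive T cells of the same library, *Maf*, *Tbc1d4* and *Pdcd1* were among the genes higher in Cd8-negative T cells. This contrast is set by the rule and is given as a description without a test. Values are medians over the 6 libraries of the difference in log2 CPM (UMIs scaled to the same sum for each class and library, with 10 added), among genes with at least 20 UMIs in both classes together. The Cd8-positive cells held 0 UMIs of each of the 10 genes that follow in 3 to 6 of the 6 libraries, so the sizes and order of these differences depend on the 10 added and on a few UMIs. The transcription factor *Maf*, which promotes IL-21 and IL-4 in helper cells, differed by 3.93 (0.98 to 5.13 per library), from 180 UMIs in Cd8-negative and 6 in Cd8-positive cells. The UMIs given here are not scaled, and the classes hold 417 Cd8-negative and 108 Cd8-positive cells, so the scaled median difference follows in brackets. *Tbc1d4*, a regulator of glucose transporter traffic, had 176 and 14 UMIs (3.24). The inhibitory receptor *Pdcd1* had 176 and 8 (3.13), *Cd4* 119 and 12 (2.89) and the Tfh-associated factor *Tox2* 60 and 3 (2.78). *Sostdc1*, which encodes a secreted antagonist of BMP and Wnt signals, had 56 UMIs in Cd8-negative cells and 0 in Cd8-positive cells, and was seen in 1 to 9 cells of every library. The set also held *Stx11*, with 72 and 5 UMIs, and the linker histone *H1f0*, with 128 and 17. It further held the interferon-induced *Isg15*, with 123 and 8, and *Padi4*, with 65 and 0. All 10 genes had under 20 UMIs in Cd8-positive cells. They thus passed the filter through Cd8-negative cells alone. *Maf*, *Tbc1d4*, *Pdcd1*, *Cd4*, *Sostdc1*, *Tox2* and *Isg15* were higher in 6 of 6 libraries, *Stx11* and *H1f0* in 5 and *Padi4* in 4, being at 0 in both classes of WT replicate 3 and HET replicate 2.

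Of the 10 genes lowest against Cd8-positive T cells, *Nkg7*, *Klrd1*, *Ccl5* and *Ctsw* are known from cytotoxic lymphocytes. Apart from *Cd8b1* and *Cd8a*, which the rule set to 0, *Plac8* differed by -2.63, the granule gene *Nkg7* by -2.59, *Ly6c2* by -2.57 and the NK receptor chain *Klrd1* by -2.25. *Tm6sf1* differed by -2.19, the chemokine *Ccl5* by -2.16, *Ms4a4c* by -2.02 and the cathepsin *Ctsw* by -1.98. *Ly6c2*, *Klrd1*, *Ms4a4c* and *Ctsw* were lower in 6 of 6 libraries. *Nkg7* was lower in 5, and in WT replicate 3 it stood at 501 CPM against 364 CPM. *Ccl5* was higher in WT replicate 2 (1390 against 981 CPM), *Plac8* in HET replicate 2 (21.5 against 13.0) and *Tm6sf1* in HET replicate 1 (15.8 against 0). *Plac8* and *Tm6sf1* had under 20 UMIs in Cd8-negative cells (17 and 8), so they passed the filter through Cd8-positive cells alone.

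**Figure D3:**
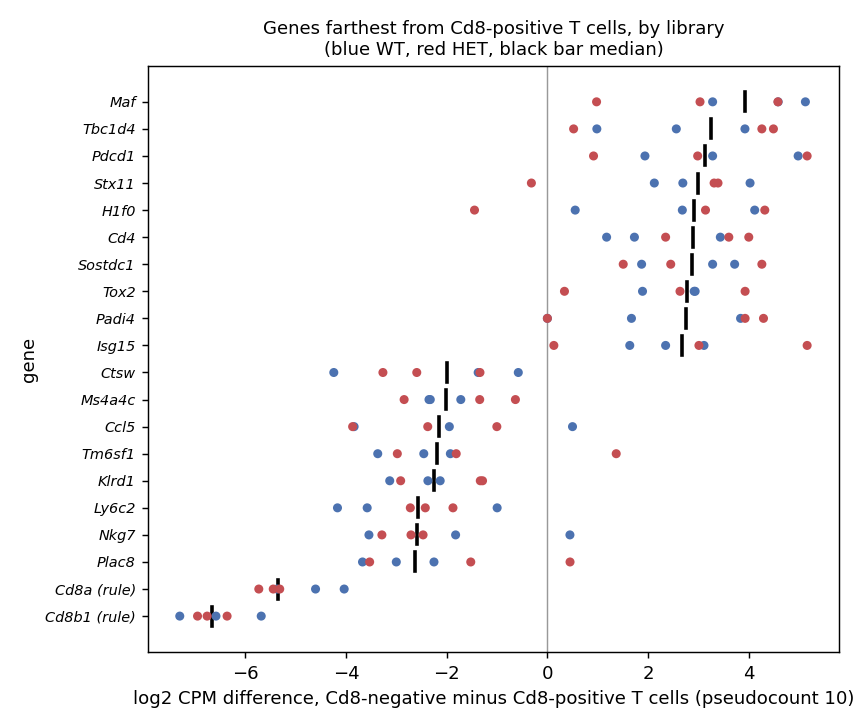
Difference in log2 CPM (pseudocount 10) between Cd8-negative and Cd8-positive T cells of the same library, for the 10 genes farthest in each direction (points, libraries; bars, medians). *Maf* has a median of 3.93, genes without Cd8-positive UMIs in a library are placed by the pseudocount, and *Cd8b1* and *Cd8a*, marked as rule genes, are lowest by construction.

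Cells with Tfh transcripts formed a sizeable part of the group. A cell was placed in the Tfh-marker subset when it had no *Foxp3* UMI and at least 2 of *Cxcr5*, *Pdcd1*, *Icos*, *Il21*, *Tox2*, *Bcl6* and *Cd200*. This held for 107 of 417 cells (25.7%), against 8.33% of Cd8-positive T cells and 7.99% of B-lineage barcodes, which are deeper and themselves express *Cxcr5*, *Bcl6* and *Cd200*. After thinning to 1000 UMIs the shares were 13.9%, 2.06% and 0.355%. The 2 Cd8-positive cells behind the 2.06% were of HET replicate 2, and without that library the share was 0 of 78 cells, which allows up to 3.85%. None of the 7 genes was seen in 210 cells, 1 in 97, 2 in 62 and 3 or more in the other 48, with a highest number of 6 in 1 cell. Tfh-marker cells had a median of 2008 UMIs, above the 1431 of naive-marker cells, so the subset was drawn in part from the deeper cells.

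Genes that did not define the subset were also frequent in it. *Sh2d1a*, the adaptor SAP that Tfh cells need for lasting contact with B-cells, was detected in 76.6% of Tfh-marker cells, *Izumo1r* (folate receptor 4) in 69.2%, *Tcf7* in 61.7%, *Ikzf2* (Helios) in 55.1% and *Maf* in 53.3%. In naive-marker cells *Sh2d1a* was detected in 19 of 95, *Izumo1r* in 26.3%, *Ikzf2* in 6.32% and *Maf* in 3.16% (3 cells, 2 of them of HET replicate 1). *Tcf7*, shared by naive and Tfh cells, was detected in 45.3% of naive-marker cells. Of the Tfh cytokines, *Il21* was detected in 18.7% of Tfh-marker cells and *Il4* in 11.2%, with *Cd40lg* in 25.2% and *Cd4* in 30.8%. WT replicate 2 held 11 of the 20 *Il21* cells, and without it the share was 10.3%. *Sostdc1* had 43 of its 56 UMIs in Tfh-marker cells and 0 in naive-marker cells, and *Padi4* 61 of its 65. *Il1r2*, a decoy receptor for IL-1, had 35 UMIs in Tfh-marker cells and 0 in naive-marker cells. The interferon-inducible GTPase *Iigp1* had 48 and 2 UMIs. *Sostdc1*, *Padi4*, *Il1r2* and *Iigp1* had under 20 UMIs in naive-marker cells. They passed the filter of at least 20 UMIs in both subsets together through Tfh-marker cells alone. The values of this paragraph are descriptions of cells that were grouped on other genes of the same counts.

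The naive-marker subset held 95 cells (22.8%), selected on at least 2 of 5 naive genes, among them *Ccr7*, *Lef1*, *S1pr1* and *Dapl1*, within the cells in neither the *Foxp3* nor the Tfh-marker subset. *Klf2*, the factor that maintains *S1pr1*, was detected in 83.2% of these cells and in 11.2% of Tfh-marker cells. The chromatin organizer *Satb1* was detected in 46.3% and 5.61%, the IL-7 receptor chain *Il7r* in 34.7% and 8.41% (3.95% of Tfh-marker cells without HET replicate 2), and *Igfbp4* in 28.4% and 0%. *Igfbp4* had 36 UMIs in naive-marker cells and *Ly6c1* 24, while both were at 0 UMIs in Tfh-marker cells. Both thus passed the filter of at least 20 UMIs through naive-marker cells alone. Of Cd8-positive T cells 51.9% met the same definition, and *Klf2* was detected in 82.4% of them. After thinning, the naive-marker share was 18.5% of Cd8-negative T cells, 30.9% of Cd8-positive T cells and 0.469% of B-lineage barcodes.

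The *Foxp3* transcript was found in 17 cells (4.08%), against 3 of 108 Cd8-positive T cells and 1 of 19326 B-lineage barcodes. Of these 17 cells 10 came from HET replicate 2, 2 each from WT replicate 1 and HET replicates 1 and 3, 1 from WT replicate 2 and none from WT replicate 3. Without HET replicate 2 the share was 2.42% (7 of 289 cells). In the 17 cells the TNF receptor family members *Tnfrsf18* (GITR) and *Tnfrsf4* (OX40) were detected in 82.4% and 76.5%, and *Ikzf2*, *Capg* and *Izumo1r* in 64.7% each. Among the 7 from libraries other than HET replicate 2, *Tnfrsf18* and *Tnfrsf4* were detected in 6 each, *Izumo1r* in 7, and *Ikzf2* and *Capg* in 4 each. *Il2ra*, the CD25 chain of the IL-2 receptor, was detected in 2 of the 17 and *Ctla4* in 3. Of the 17 cells, 3 had at least 2 of the Tfh genes, and 1 (5.88%) had a *Cd4* UMI. The cell with *Cd4* was that of WT replicate 2, which held 17530 UMIs against a median of 1282 in the 17 cells. *Ikzf2* was also seen outside these cells, in 34.1% of all Cd8-negative T cells. *Tigit* was at 0 UMIs in all 417 cells, which allows a share of cells with a UMI of up to 0.719%.

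The remaining 198 cells (47.5%) fell into none of these subsets and had a median of 1346.5 UMIs. Across the 417 cells, 53 (12.7%) had at least 2 of 11 cytotoxic genes other than Cd8, 8 of which also had a *Cd4* UMI, against 67 of 108 Cd8-positive T cells. These 53 cells were 5, 6 and 2 cells in WT replicates 1, 2 and 3, and 5, 22 and 13 cells in HET replicates 1, 2 and 3. *Trdc*, the constant segment of the delta chain of gamma-delta T cells, was seen in 5 cells, and *Trdc* or a gamma constant gene in 14. Of 8 genes of type 2 and type 17 helper cells, 3 had any UMI, and the cytokines *Il13*, *Il5*, *Il17a* and *Il17f* were at 0 UMIs. At least 3 of 11 cell cycle genes were seen in 41 cells, which were 9.09%, 10.2% and 2.78% of the cells of WT replicates 1, 2 and 3, and 4.11%, 15.6% and 9.09% of those of HET replicates 1, 2 and 3. *Mki67* was detected in 19.6% of Tfh-marker cells and 4.21% of naive-marker cells, or in 11.8% and 2.30% without HET replicate 2. These cell cycle values are from cells that were not thinned. Of the 11 cell cycle genes, 8 had enough UMIs for the genotype test below, and 4 once the 8 cells marked as doublets were left out.

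Subset shares were compared between genotypes in the 352 cells with at least 1000 UMIs, thinned to that number, because detection depends on depth. Thinning left out 19, 2 and 2 cells of WT replicates 1, 2 and 3 and 20, 20 and 2 cells of HET replicates 1, 2 and 3. The Tfh-marker share was 8.33%, 17.5% and 14.7% in WT replicates 1, 2 and 3, and 20.8%, 13.0% and 9.38% in HET replicates 1, 2 and 3. The groups overlapped, with means of 13.5% ± 4.72 and 14.4% ± 5.82 (SD, n = 3 each) and a difference of 0.837 percentage points (exact permutation p = 0.9). The difference was -1.76 without WT replicate 1 and -2.36 without HET replicate 1. Without thinning, the share was 11 of 55, 20 of 59 and 7 of 36 cells in WT, and 24 of 73, 31 of 128 and 14 of 66 cells in HET.

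The naive-marker share differed most. It was 27.8%, 21.1% and 35.3% in WT replicates 1, 2 and 3, and 18.9%, 4.63% and 16 of 64 cells in HET replicates 1, 2 and 3. The lowest value was that of HET replicate 2, with 5 of 108 cells, and the highest HET value lay above the lowest WT value. Between libraries of the same replicate number, the HET share was below the WT share in 3 of 3 pairs (exact sign-flip p = 0.25, the smallest that 3 pairs allow). The means were 28.0% ± 7.12 in WT and 16.2% ± 10.5 in HET (SD, n = 3 each), a difference of -11.9 percentage points (exact permutation p = 0.2). Without HET replicate 2 the difference was -6.11 (exact permutation p = 0.4, where 0.1 is the smallest p that 3 against 2 libraries allow). Without thinning, naive-marker cells were 16 of 55, 17 of 59 and 15 of 36 cells in WT replicates 1, 2 and 3 (29.1%, 28.8% and 41.7%), and 17 of 73, 8 of 128 and 22 of 66 cells in HET replicates 1, 2 and 3 (23.3%, 6.25% and 33.3%). These shares too were lower in HET in 3 of 3 pairs and overlapped between the genotypes.

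The *Cd4* subset was 11.1%, 7.02% and 32.4% in WT replicates 1, 2 and 3, and 11.3%, 13.9% and 10.9% in HET replicates 1, 2 and 3. WT replicate 3 alone stood high, with 11 of 34 cells. The difference of means was -4.78 percentage points (16.8% ± 13.6 and 12.0% ± 1.60, SD, n = 3 each; exact permutation p = 0.9) and became 2.98 without that library. *Foxp3* was seen in 2, 0 and 0 thinned cells of WT replicates 1, 2 and 3 and in 0, 6 and 2 of HET replicates 1, 2 and 3, with means of 1.85% ± 3.21 and 2.89% ± 2.79 (SD, n = 3 each; exact permutation p = 1). The difference was 1.04 percentage points, and -0.289 without HET replicate 2.

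**Figure D4:**
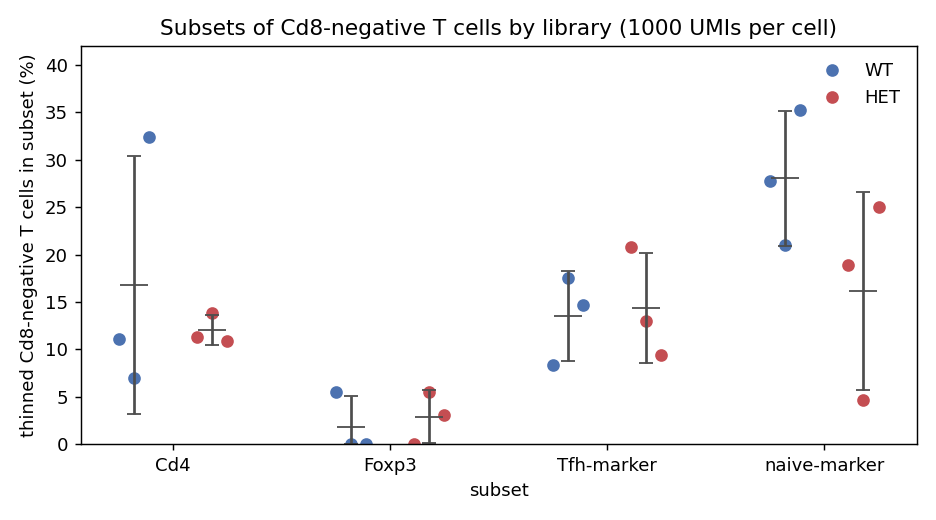
Percentage of Cd8-negative T cells in each subset after thinning to 1000 UMIs (points, libraries in replicate order; horizontal marks and bars, mean and SD, cut at 0; blue WT, red HET). The *Cd4* subset overlaps the others by definition. The WT and HET points overlap in every subset, and HET replicate 2 is lowest for the naive-marker subset at 4.63%.

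Whether genes differed between genotypes was tested on UMIs summed over the Cd8-negative T cells of each library. *Smc3*, the targeted gene, had 7, 20 and 4 UMIs in WT replicates 1, 2 and 3, and 9, 31 and 13 UMIs in HET replicates 1, 2 and 3. Its log2 fold change (HET minus WT) was -0.11 with a standard error of 0.39 and a 95% interval of -0.94 to 0.71, and its adjusted p in edgeR was 0.9996. The libraries count 3′ ends, so a transcript of an allele that lacks an upstream exon can still be counted and the level does not check the genotype. Cre is expressed from a locus that is active in B-cells, so the HET label does not say that *Smc3* was deleted in these T cells. Whether it was deleted in them was not tested. No gene of 2056 tested passed an adjusted p of 0.05 in edgeR's quasi-likelihood test with Benjamini-Hochberg adjustment (0%), and none in DESeq2 (0%). At an unadjusted p under 0.05 edgeR gave 48 genes (2.33%) and DESeq2 gave 25. All 3 HET libraries lay above all 3 WT libraries for 69 genes (3.36%) and below them for 70 genes (3.40%).

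The other cohesin genes were also few in UMIs. Of 13 cohesin genes, 7 passed the filter on low counts, and all 7 had log2 fold changes below 0, from -0.09 for *Stag2* to -0.84 for *Wapl*, with a median of -0.168. The median was -0.065 without HET replicate 1, -0.382 without HET replicate 2, -0.256 without HET replicate 3, -0.510 without WT replicate 1 and -0.331 without WT replicate 3, and up to 2 of the genes lay above 0 when a library was left out. Without the count filter, 5 of the 7 were below 0 and *Smc3* was near 0, and with the Y-linked covariate 5 were. With other cell rules 6 genes were tested. Their median was -0.322 with at least 500 genes, -0.353 with at least 3 T cell genes and -0.355 with *Cd79a* at 0. It was -0.324 without the cell above 10% immunoglobulin and -0.148 with doublets left out. Over all 2056 genes the median was -0.022, with 958 above 0 and 1098 below. *Wapl*, which releases cohesin from chromatin, had 11, 20 and 10 UMIs in WT replicates 1, 2 and 3, and 15, 23 and 5 UMIs in HET replicates 1, 2 and 3, from summed libraries of unequal size. It had an unadjusted p of 0.041 by edgeR, and it was the single cohesin gene whose groups did not overlap after scaling.

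Genes of naive T cells had fold changes below 0 and none passed the threshold. Of 11 genes in the list, 9 were tested, 0 were above 0 and the median log2 fold change was -0.950, which became -0.493 without HET replicate 2, -0.544 without WT replicate 3 and -1.43 without HET replicate 3. All 9 were also below 0 with RLE scaling and in DESeq2. Without the count filter, in cells with at least 500 genes, in cells with *Cd79a* at 0, without WT replicate 1 or without HET replicate 2, 8 were, and without WT replicate 3, 7 were. The homing receptor *Ccr7* had 17, 25 and 25 UMIs in WT replicates 1, 2 and 3, and 11, 11 and 18 UMIs in HET replicates 1, 2 and 3, although the HET sums were on the whole deeper. Its log2 fold change was -1.58 ± 0.47 (SE), every HET library was below every WT library after scaling, and its adjusted p in edgeR was 0.9996. It was -1.06 without HET replicate 2. *Dapl1* (log2 fold change -1.05) and *Satb1* (-1.01) also had an unadjusted p under 0.05, and their groups overlapped. Without HET replicate 2 they were at -0.77 and -0.49. The UMIs of the 11 naive genes together were 0.201% to 0.380% of the total in WT and 0.117% to 0.252% in HET, which overlap.

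Effector and memory genes gave the opposite sign. Of 12 genes, 5 were tested, 4 lay above 0 and the median log2 fold change was 1.04, or 0.882 without HET replicate 2. *Cd44*, an adhesion receptor kept high on antigen-experienced T cells, had 7, 3 and 2 UMIs in WT replicates 1, 2 and 3, and 12, 30 and 11 UMIs in HET replicates 1, 2 and 3. Its HET libraries lay above its WT libraries after scaling, with a log2 fold change of 1.17 (unadjusted p = 0.036 by edgeR). *Id2* (1.03) and the chemokine receptor *Cxcr3* (1.06) had an unadjusted p under 0.05 with overlapping groups, and *Itgb1* was at -0.24. HET replicate 2 held 44 of the 74 cells with a *Cxcr3* UMI, and without that library *Cxcr3* was at 0.45, *Id2* at 0.88 and *Cd44* at 1.10, while *Cd44* was at 0.72 without WT replicate 2. The 12 genes together took 0.0486% to 0.0830% of UMIs in WT and 0.0846% to 0.161% in HET. These ranges did not overlap, and the sums were not tested. The same held for the B-cell list (up to 0.0625% in WT, from 0.0834% in HET). It also held for the list of gamma-delta, NKT and NK cell genes (up to 0.0206% and from 0.0213%). Cells with at least 2 cytotoxic genes, which also numbered most in HET replicates 2 and 3, are given above, and their part in these values was not tested.

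Tfh genes showed no common direction. Of 17 genes, 9 were tested, 3 lay above and 6 below 0, and the median log2 fold change was -0.013, whereas without the count filter 6 lay above 0. Without WT replicate 2, 7 of the 9 lay above 0 and the median was 0.246, and leaving out any other library gave 2 to 5 above 0. *Pdcd1* had 8, 46 and 14 UMIs in WT replicates 1, 2 and 3, and 44, 35 and 29 UMIs in HET replicates 1, 2 and 3, with a log2 fold change of -0.01 and a 95% interval of -0.92 to 0.90. *Icos* was at 0.32 (-0.41 to 1.05), *Cxcr5* at 0.14 (-0.69 to 0.97), *Maf* at -0.31 (-1.15 to 0.53) and *Cd4* at -0.51 (-1.38 to 0.36), the last at 0.08 without WT replicate 3. Each interval includes 0, and their widths do not show that the genotypes were alike. On leaving out a library, *Pdcd1* ranged from -0.39 to 0.58, *Icos* from 0.03 to 0.67, *Cxcr5* from -0.07 to 0.43 and *Maf* from -0.70 to 0.25. Of 15 Treg genes, 6 were tested and 5 lay above 0 with a median of 0.255, led by *Capg* at 1.15 (unadjusted p = 0.012 by edgeR), or 0.77 without HET replicate 2. Without WT replicate 1, 2 lay above 0 and the median was -0.017. With doublets left out 4 lay above 0 and the median was 0.121, and without WT replicate 2 the median was 0.390.

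**Figure D5:**
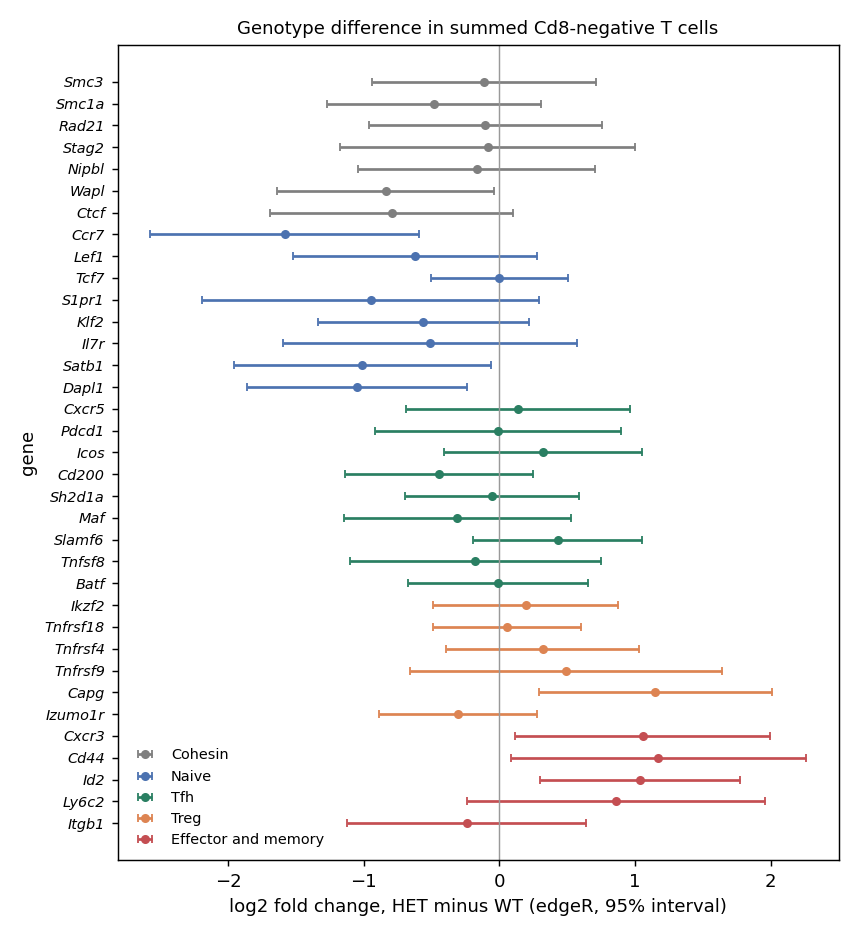
Log2 fold change (HET minus WT) with its 95% interval from edgeR for the tested genes of the cohesin, naive (8 of 9 drawn), Tfh, Treg and effector lists in summed Cd8-negative T cells. The naive genes drawn lie at or below 0 and 4 of 5 effector genes above 0, while no gene passed the adjusted threshold.

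The genes with the smallest unadjusted p among those below 0 were *Ccr7*, *Pdk1* (log2 fold change -1.39), *Gnl3* (-1.22), *Srpk1* (-0.84) and *Il6ra* (-1.12). The groups of each did not overlap. *Pdk1* was at -0.87 without HET replicate 2, and *Gnl3* at -0.78 without WT replicate 2. *Pdk1*, a kinase that inhibits pyruvate dehydrogenase, had 11, 17 and 8 UMIs in WT replicates 1, 2 and 3, and 11, 7 and 6 UMIs in HET replicates 1, 2 and 3. *Il6ra*, the receptor for IL-6, had 10, 16 and 11 UMIs in WT and 6, 16 and 10 UMIs in HET. *Gnl3* encodes nucleostemin and *Srpk1* a splicing factor kinase. All 5 had an adjusted p of 0.9996 in edgeR.

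Among genes above 0 the smallest unadjusted p belonged to *Igha*, *Igkc*, *Jchain*, *Fundc1* and *S100a6*, and the first 3 are genes of plasma cells. *Igha*, the IgA heavy chain, had 11, 4 and 4 UMIs in WT replicates 1, 2 and 3, and 420, 1155 and 6 UMIs in HET replicates 1, 2 and 3, so HET replicate 3 overlapped WT. The difference was 5.13 ± 1.03 on the log2 scale (SE), with an adjusted p of 0.256 in edgeR. In HET replicate 1, 416 of the 420 UMIs came from the cell with 55.8% immunoglobulin described above. In HET replicate 2 an *Igha* UMI was present in all 128 Cd8-negative T cells, with at most 43 in a cell, and in 99.9% of B-lineage barcodes. *Igkc*, the kappa light chain, followed the same pattern, with 39, 82 and 28 UMIs in WT and 1215, 1935 and 53 UMIs in HET, 1182 of the 1215 in that same cell. Its log2 fold change was 3.46, and 2.30 without that cell (edgeR adjusted p = 0.256 and 0.999). *Jchain*, the joining chain of IgA and IgM, had a log2 fold change of 2.73, and 1.51 without HET replicate 2.

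With the replicate number as a block, *Igha* and *Igkc* passed the threshold at log2 fold changes of 5.21 and 3.04 (edgeR adjusted p = 0.000504 and 0.0356). These were the only genes called with the block. With the block and without the cell of 55.8% immunoglobulin no gene was called at an adjusted p of 0.05 in edgeR (78 of 2037 at an unadjusted p under 0.05), *Igkc* was at 1.24 and *Igha* was not tested. B-cell genes were also highest in HET replicate 2. Of 14 listed B-cell genes 13 had a UMI in HET libraries, and their summed share was 0.339% of UMIs in HET replicate 2, against 0.0555% to 0.0625% in WT and 0.0834% and 0.0861% in the other HET libraries. MHC class II genes made up most of it, with 641 *Cd74* UMIs, of which 211 lay in 1 cell, and 165 *H2-Aa* UMIs. The B-cell transcription factor *Ebf1* was at 0 UMIs in that library, *Pax5* and *Cd79b* at 1 each, and *Ms4a1* was at 0 by the rule. Plasma cell genes other than immunoglobulin heavy and light chains took 0.0193% to 0.0203% of UMIs in WT and 0.0179% to 0.146% in HET. The part of B-lineage RNA in the immunoglobulin values was not tested.

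*Fundc1*, a mitochondrial receptor for autophagy, had 2, 4 and 1 UMIs in WT replicates 1, 2 and 3, and 10, 27 and 12 UMIs in HET replicates 1, 2 and 3. The groups did not overlap after scaling and differed by 1.86 ± 0.55 (SE) on the log2 scale, with an edgeR adjusted p of 0.9996. In B-lineage barcodes it was detected in 18.5% to 51.4% per library. *S100a6*, a calcium-binding protein, had 23, 18 and 11 UMIs in WT and 19, 355 and 68 UMIs in HET, and its log2 fold change of 1.83 became 0.93 without HET replicate 2. It was seen in 68 of the 128 cells of that library and in 6 to 15 cells of each other library.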

How the data were processed

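Single cell RNA-seq was measured in 6 libraries, 3 per genotype, and groups and replicate numbers were taken from the sample titles. The authors sequenced 10x Genomics 3′ libraries and ran Cell Ranger (version 3.0.2 in the file headers) against mm10, per the submitters' processing notes, which also name Seurat 4.0.0 and R 4.0.2. The deposited values are whole-number UMI counts per gene and cell barcode, not normalized, for barcodes called as cells. Of 31053 features, 36 repeated a symbol and were kept apart by identifier.

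The cells, subsets and gene lists were chosen with earlier results of these data known. The text names the cohesin genes, the label markers, members of the marker lists, the 10 genes farthest from Cd8-positive T cells in each direction, and, since no gene passed, the 5 in each direction with the smallest unadjusted p. *Gal*, and genes used to describe the Tfh-marker subset, were named after their values were seen. Some listed genes are not reported here. Counts were summed per library and tested with edgeR 4.0.16 (TMM, filterByExpr, quasi-likelihood test, Benjamini-Hochberg at 0.05; DESeq2 1.42.0 as an alternative). Shares were compared with exact two-sided permutation tests over libraries, and intervals on shares (Clopper-Pearson, 95%) cover counting error only. A count of 0 is given with the share that 3 counts would make. Doublets were kept. In an alternative the highest Scrublet scores (scanpy 1.11.5, 0.8% per 1000 barcodes) were left out, which marked 8 of the 417 cells. Departures from the genotypes' mean profiles were correlated between each HET library and the WT library of its number (r across genes 0.159, 0.192 and 0.281). Libraries of unlike number were not compared in this way, so these values do not show that the numbers pair libraries. Blocks and pairs by replicate number are given as alternatives only.

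The gene test was tested on simulated data. Other alternatives were RLE scaling, no count filter, immunoglobulin genes left out, presence of Y-linked transcripts as a covariate, other cell rules, other thinning and leaving out each library. Leaving out the cell above 10% immunoglobulin (with and without the block), paired tests of shares, and the leave-one-out values of the share among T cells and of pooled detection shares were chosen after seeing the data. Python 3.11.15, numpy 2.4.6, scipy 1.17.1 and R 4.3.3 were used.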

Additional observations from a re-analysis of the deposited data

How the results depend on the processing

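With 36 to 128 cells per library, a standard error of 0.39 on the log2 scale for *Smc3* shows that small differences were not detectable. The count of called genes was 0 under DESeq2, RLE scaling, immunoglobulin genes left out, the Y-linked covariate, each cell rule and removal of the high-immunoglobulin cell. It was 13 of 11982 genes without the low-count filter (12 higher, 1 lower), among them *Igha*, *Igkc*, *Jchain*, *Cd74*, *H2-Aa* and *Gal*. With the replicate block it was 2, or 0 once the high-immunoglobulin cell was also left out, and the block changed no other call (exact sign-flip p of the 6 shares 0.25 to 1). Leaving out 1 library gave 0 to 3 calls, namely *S100a6* without HET replicate 1, *Igha*, *Igkc* and *Gal* without HET replicate 2, and *Igha*, *Igkc* and *Jchain* without HET replicate 3. *Igha* was not tested once the high-immunoglobulin cell was left out, since it no longer passed the low-count filter.

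*Smc3* changed sign to 0.016 with the Y-linked covariate and 0.043 without doublets, and ranged from -0.28 to 0.41 on leaving out a library, with no adjusted p under 0.997. On leaving out a library, the share of Cd8-negative T cells differed by -0.611 to 1.58 percentage points (2.88 to 7.75 among T cells), the *Cd4* subset by -9.68 to 2.98, the *Foxp3* subset by -0.289 to 2.89 and the Tfh-marker subset by -2.36 to 3.33. Except for the share among T cells, each of these ranges crosses 0. The naive-marker difference stayed below 0 in all 14 alternatives run, from -16.3 to -6.11, with no p under 0.2. Causes of these changes were not tested.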

Other observations

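*Gal*, which encodes the neuropeptide galanin, was concentrated in few cells. Its UMIs were 3, 21 and 0 in WT replicates 1, 2 and 3, and 245, 0 and 6 in HET replicates 1, 2 and 3. In HET replicate 1 they lay in 4 of 73 cells, and a single cell held 150 of them among 3183 UMIs. That cell had 7 *Cd3d*, 5 *Trac*, 3 *Pdcd1* and 2 *Cxcr5* UMIs, no *Foxp3* UMI and 3 *Igkc* UMIs. In WT replicate 2 the 21 UMIs lay in 5 cells with at most 6 in a cell. *Gal* was detected in 2.55% of B-lineage barcodes of HET replicate 2 and in at most 0.239% of those of the other libraries, while no Cd8-negative T cell of HET replicate 2 had a UMI.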
